A study of Mus musculus with 11 samples.

Results

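The small leucine-rich proteoglycans are secreted matrix proteins with a core of leucine-rich repeats, and 8 of their genes were followed here: Dcn, Bgn, Aspn, Fmod, Lum, Prelp, Omd and Ogn. They were taken as every probe whose updated gene name was that of a member, which gave 11 probes of 41121 and 8 genes of 27567 on the array. Dcn, Bgn and Prelp had 2 probes each. RNA had been labelled with Cy3 and hybridised to 11 Agilent arrays with 60-base probes. Per the labels, 5 arrays held cardiac progenitor cells of beta-sarcoglycan null mice (KO), from ventricle, aorta or atrium, and 3 held progenitors of wild-type mice (WT), 1 from each region. The other 3 held C2C12, a mouse myoblast line that the design names as the control for muscle differentiation. The design calls the heart cells mesoangioblasts, which are progenitor cells associated with small vessels, and it calls the samples biological triplicates. The labels describe the WT cells as able to become beating cardiomyocytes and the null cells as able to become skeletal muscle fibres. The labels used here give no age, strain background, passage or state of differentiation at harvest.

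KO ventricle, KO aorta and C2C12 were each on slides 1 and 3, and these 3 pairs of arrays differed by 0.577 to 0.687 of the noise between repeated spots, against 2.51 or more for the other pairs. Each pair was averaged and counted as 1 sample, which left 3 KO samples, 3 WT samples and 2 C2C12 samples. Each heart sample then came from a different region of its genotype, so the spread within a genotype is also a spread between regions. Slides 1 and 3 held the KO arrays and slide 2 the WT arrays, so slide and genotype are linked through C2C12 alone, which was on all 3 slides. Values are log2 processed signals from which each array's own 75th percentile was subtracted, so 0 is that percentile. The WT atrium array stood apart from the other WT arrays over 8208 bright probes, with an SD of log2 differences of 0.602 and 0.577, against 0.216 between WT ventricle and WT aorta. Without it 5873 genes passed an adjusted p of 0.05 between KO and WT, against 4461 with it, and the number of members that passed was 4 either way. The 75th percentile lay between 1014 and 1199 signal units, and 49.0 to 62.0% of the probes passed as well above background on an array. Whether samples came from separate mice or cultures is not given, and the p-values rest on a spread between samples that could be technical. With its brightest probe Sgcb, the gene of beta-sarcoglycan, read 2.64, 2.99 and 2.34 in the KO samples of atrium, ventricle and aorta, and 2.07, 2.20 and 1.82 in the WT samples of these regions. It was therefore not lower in the samples labelled KO (log2 difference 0.63, SE 0.21, limma adjusted p 0.071), and where the deletion lies in the gene is not given. The groups are called KO-labelled and WT-labelled below for that reason.

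Marker genes also set the groups apart. All 6 tested genes of the skeletal myoblast list were higher in the KO-labelled samples than in the WT-labelled ones, where 13.7% of all genes were. The summed level of that list was 46.4 to 149 in KO-labelled samples, 0.113 to 0.162 in WT-labelled samples and 70.5 to 152 in C2C12. Summed levels are in multiples of the array's 75th percentile. The summed fibroblast list was 1.22 to 7.25 in KO-labelled samples, 30.8 to 74.8 in WT-labelled samples and 6.21 to 13.1 in C2C12. Of that list Thy1, Dpt, Col15a1 and Tcf21 were above background on no KO-labelled array, and Col15a1 and Tcf21 on no WT-labelled array. Summed macrophage markers were 0.157 to 0.224 in KO-labelled samples, 1.20 to 2.34 in WT-labelled samples and 0.210 to 0.233 in C2C12, with Ptprc and Adgre1 above background on no array. Summed epicardial markers were 2.82 to 7.31 in KO-labelled samples, 10.3 to 99.7 in WT-labelled samples and 4.43 to 4.54 in C2C12. This list was mixed, since of its 4 tested genes 1 was higher and 1 lower in the KO-labelled samples. Wt1 and Bnc1 were above background on no KO-labelled array, Krt19 on no WT-labelled array, and Upk1b and Upk3b on no heart array. Summed endothelial markers were 1.31 to 4.72 in KO-labelled samples, 1.27 to 3.28 in WT-labelled samples and 3.03 to 4.16 in C2C12, with 2 of 7 genes above background on every array in each group. Of the 3 of these genes that were tested, Flt1 was higher and Egfl7 and Erg lower in the KO-labelled samples, while Pecam1, Cdh5 and Kdr, which define endothelium, were above background on no array. These are whole cultures, in which fewer cells of a type and less RNA per cell cannot be told apart.

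As background, small leucine-rich proteoglycans bind collagen fibrils and set their width and spacing, and several carry chondroitin, dermatan or keratan sulfate chains. Decorin, biglycan and asporin form class I, fibromodulin, lumican, PRELP and osteomodulin belong to class II, and osteoglycin to class III. Decorin and biglycan are also known to bind TGF-beta, and free biglycan to engage Toll-like receptors. In heart, decorin and lumican are commonly made by fibroblasts, and the family is part of the matrix laid down in scars.

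The genes of the family lie in clusters. In the RefSeq gene table of assembly GRCm38.p6, Prelp and Fmod are neighbours on chromosome 1, Dcn and Lum on chromosome 10, and Aspn, Omd and Ogn on chromosome 13. In each cluster there were 0 other protein-coding genes between neighbours, and Bgn lies on X. RefSeq promoters were matched for 6 of the 8 members, namely Bgn, Ogn, Fmod, Prelp, Aspn and Omd. The 250 bases before the annotated start, 5′ to 3′ on the gene's strand, are shown for Aspn, Fmod and Prelp, since the first pair was higher and Prelp lower in the KO-labelled samples. Capitals mark the E-box CANNTG, whose letters read the same on both strands.
Aspn: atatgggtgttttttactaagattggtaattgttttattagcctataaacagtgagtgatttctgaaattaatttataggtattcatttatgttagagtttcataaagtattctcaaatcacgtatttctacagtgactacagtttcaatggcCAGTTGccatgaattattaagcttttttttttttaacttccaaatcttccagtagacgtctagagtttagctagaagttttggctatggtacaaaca
Fmod: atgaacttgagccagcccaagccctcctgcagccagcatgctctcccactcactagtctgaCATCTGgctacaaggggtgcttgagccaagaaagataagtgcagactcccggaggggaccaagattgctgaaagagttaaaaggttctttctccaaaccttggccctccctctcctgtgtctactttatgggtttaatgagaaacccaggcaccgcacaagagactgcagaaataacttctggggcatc
Prelp: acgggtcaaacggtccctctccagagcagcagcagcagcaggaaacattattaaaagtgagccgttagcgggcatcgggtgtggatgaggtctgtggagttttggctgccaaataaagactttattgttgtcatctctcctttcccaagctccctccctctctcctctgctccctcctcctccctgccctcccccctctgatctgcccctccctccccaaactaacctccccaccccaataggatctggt
The Aspn sequence is chr13:49544193-49544442 on the plus strand, that of Fmod chr1:134037004-134037253 on the plus strand, and that of Prelp chr1:133921402-133921651 on the minus strand, all in GRCm38.p6. An E-box was present 1 time in the Aspn window and 1 time in the Fmod window, and 0 times in the Prelp window. Of 32851 promoters of this length 66.2% held at least 1 E-box, so its presence does not set these windows apart. The form CANCTG, on either strand, which is a subset of the E-box, was also present 1 time for Aspn and for Fmod and in 44.8% of all promoters. The letters TATAAA on either strand were found 2 times in the Aspn window and in 12.4% of all promoters. Aspn had a GC content of 30%, Fmod of 51.2% and Prelp of 55.6%, against a median of 52.4% over all promoters. Of the windows not printed, Ogn held 3 E-boxes and 2 matches to TATAAA, Bgn held 1 E-box and no TATAAA, and Omd held neither. These matches describe letters in the windows only.

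Between the KO-labelled and the WT-labelled samples, the family split in direction. Dcn and Prelp were lower in the KO-labelled samples, by 17.9 times and 3.52 times, and Aspn and Fmod were higher, by at least 2.14 times and by 3.92 times. Ogn, Bgn and Omd did not pass the test, and Lum was not tested because its probe was above background on too few arrays. The call was an adjusted p under 0.05 from limma over 15002 genes, of which 13.7% were higher and 16.1% lower in the KO-labelled samples. Among the 7 members tested, 2 were higher and 2 lower, against 29.7% of all genes called in either direction. The median difference of the 7 was 0.70 on the log2 scale, against -0.06 over all genes. A second fit took the slides as a block, so that C2C12 linked the genotypes. There 0 of the 7 members were called, beside 891 of all 15807 genes tested. The values of KO-labelled and WT-labelled samples did not overlap for 4 of the 7 members, and for 49.2% of all genes tested.

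**Figure D1:**
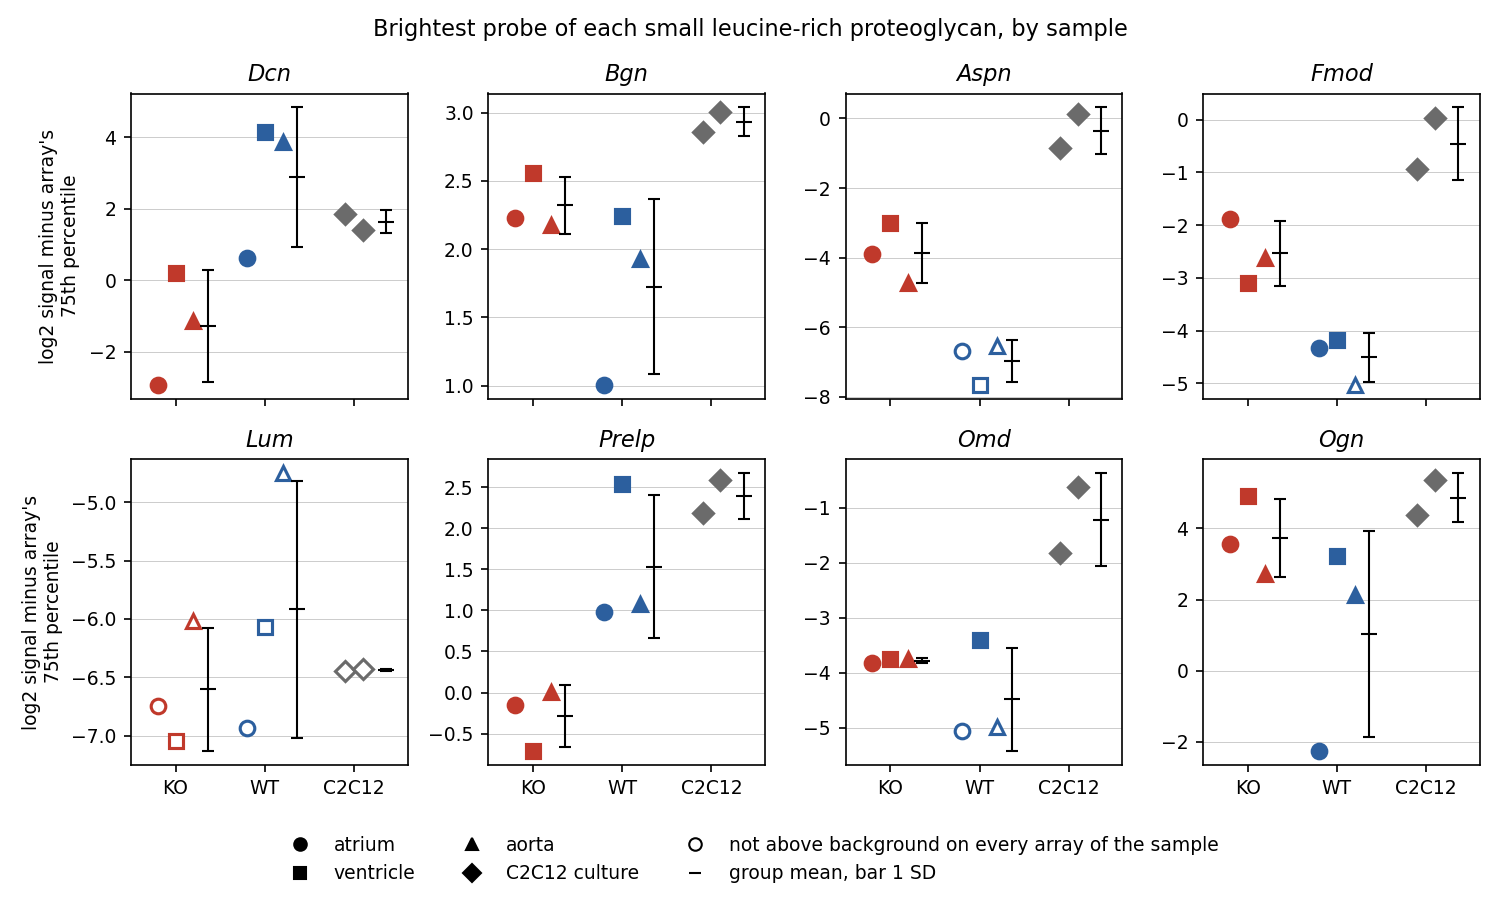
Log2 signal of the brightest probe of each member minus the array's 75th percentile (vertical axis, a scale of its own in each panel) in 3 KO-labelled, 3 WT-labelled and 2 C2C12 samples; shapes give the region, open symbols a sample with an array not well above background, and bars the mean with 1 SD. Dcn and Prelp sit lower in every KO-labelled sample than in any WT-labelled one, and Aspn and Fmod higher.

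Decorin, encoded by Dcn, is the class I member that binds collagen I fibrils and holds TGF-beta in the matrix. Its brighter probe lies at chr10:96947287-96947346 (mm8, the build of the array design, for which no exon annotation was used here). For Dcn the KO samples of atrium, ventricle and aorta read -2.92, 0.19 and -1.13, and the WT samples of these regions 0.63, 4.15 and 3.85. C2C12 read 1.87 and 1.41. Every KO-labelled sample was below every WT-labelled sample and below both C2C12 samples, although WT atrium was close to KO ventricle. The group means were -1.29 ± 1.56 in KO-labelled samples and 2.88 ± 1.95 in WT-labelled samples (SD, n = 3 each). The difference was -4.16 on the log2 scale (SE 1.18, 95% interval -7.04 to -1.29, limma adjusted p 0.0432). The call was lost when any sample but WT 1 was left out, with an adjusted p of 0.0505 without KO 1, 0.0993 without KO 2, 0.123 without KO 3 or WT 2, and 0.129 without WT 3. Without the filter on dim probes it was 0.0691. With the slides as a block the difference was -4.62 (adjusted p 0.367), and with the region as a block, which pairs the genotypes by region, it was -4.16 (SE 0.33, adjusted p 0.00393). Set against the C2C12 array of its own slide, Dcn was -4.87 in KO atrium, -1.74 in KO ventricle and -3.07 in KO aorta on slide 3. On slide 2 it was -0.78 in WT atrium, 2.75 in WT ventricle and 2.44 in WT aorta. KO atrium and WT atrium were thus the lowest of their genotype. The second scale adds nothing to this order, since 1 C2C12 value was subtracted from all 3 samples of a genotype. The summed fibroblast markers were 7.25 in KO atrium, 5.15 in KO ventricle and 1.22 in KO aorta, against 30.8, 74.8 and 54.8 in the WT samples of these regions. Their part in the Dcn difference was not tested. The other Dcn probe, at chr10:96910401-96910460 (mm8) and assigned by its symbol, was well above background on no array.

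Lumican, the neighbour of Dcn and a keratan sulfate proteoglycan that binds collagen I, was near background throughout. The Lum probe, at chr10:97002264-97002323 (mm8), was well above background on 1 of 11 arrays. That array was KO aorta on slide 3, with -4.74, whereas the repeat of that sample on slide 1 read -7.31 and was not above background. No direction can be given for Lum between any groups.

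Biglycan, encoded by Bgn, is the class I relative of decorin and is known to signal through Toll-like receptors when released. Its brighter probe, at chrX:69745935-69745994 (mm8), was above background on all 11 arrays. Bgn read 2.23, 2.56 and 2.18 in KO atrium, ventricle and aorta, and 1.01, 2.24 and 1.93 in the WT samples of atrium, ventricle and aorta. C2C12 read 2.86 and 3.01, above all 6 heart samples. The KO-labelled and WT-labelled values overlapped, and WT atrium alone stood well below the rest. The difference was 0.59 (SE 0.34, 95% interval -0.23 to 1.42, limma adjusted p 0.235), and 0.23 without WT atrium (adjusted p 0.34). The second Bgn probe was above background on 6 of 11 arrays and gave -0.31 (limma adjusted p 0.749 over all probes), so the pair did not share a sign and neither passed.

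Asporin, encoded by Aspn, is the class I member named for its run of aspartate residues and is known as an inhibitor of TGF-beta in cartilage. Its probe, at chr13:49579047-49579106 (mm8), was above background on all 5 KO-labelled arrays, on 0 of 3 WT-labelled arrays and on all 3 C2C12 arrays. Aspn read -3.88, -2.99 and -4.74 in KO atrium, ventricle and aorta. In WT atrium, ventricle and aorta it read -6.70, -7.66 and -6.54, all at background and without order. C2C12 read -0.83 and 0.12. The 3 groups did not overlap, with C2C12 highest and KO-labelled samples between. Aspn was at least 2.14-fold higher in KO-labelled than in WT-labelled samples (limma adjusted p 0.007), where the bound uses the lowest signal above background on each WT-labelled array. The call held when any 1 sample was left out, while with the slides as a block the adjusted p was 0.0898. The summed skeletal myoblast markers given above were also higher in the KO-labelled samples and C2C12 than in the WT-labelled samples, and their part in the Aspn difference was not tested.

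Fibromodulin, encoded by Fmod, is a class II member that binds collagen and is abundant in tendon and cartilage. Its probe, at chr1:135863832-135863891 (mm8), was above background on 10 of 11 arrays. Fmod read -1.89 in KO atrium, -3.09 in ventricle and -2.63 in aorta, against -4.32 in WT atrium, -4.17 in WT ventricle and -5.03 in WT aorta. The WT aorta array was the one not above background. C2C12 read -0.94 and 0.03. KO-labelled samples lay above WT-labelled samples and below C2C12 with no overlap. The difference was 1.97 (SE 0.38, 95% interval 1.06 to 2.89, limma adjusted p 0.0115), and the call held when any 1 sample was left out. With the slides as a block it was 2.94 (adjusted p 0.0925). The summed cartilage and tendon markers were 37.4 to 44.3 in KO-labelled samples, 9.96 to 12.5 in WT-labelled samples and 35.3 to 40.6 in C2C12. Tnmd was above background on no array. Comp went against the sum, since it was above background on no KO-labelled or C2C12 array but was detected among the WT-labelled arrays. Of the 5 tested genes of that list 2 were higher and 2 lower, beside 13.7% and 16.1% of all genes. The part of these markers in the Fmod difference was not tested.

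PRELP, encoded by Prelp, anchors basement membranes to collagen, and its gene is next to Fmod. Prelp read -0.15, -0.71 and 0.01 in KO atrium, ventricle and aorta, against 0.98, 2.54 and 1.08 in the WT samples of these regions. C2C12 read 2.19 and 2.59. The KO-labelled samples lay below all others, and the WT-labelled ones overlapped with C2C12. The difference was -1.82 (SE 0.46, 95% interval -2.94 to -0.69, limma adjusted p 0.0306) with the brighter probe at chr1:135726768-135726827 (mm8). It missed the threshold without KO 1 (adjusted p 0.0929), KO 2 (0.0612), KO 3 (0.0814) or WT 3 (0.0559), without the filter on dim probes (0.0537), with the region as a block (0.0734) and with the slides as a block (-1.42, 0.494). A second probe, at chr1:135731455-135731514 (mm8), was above background on 0 of 5 KO-labelled arrays, 2 of 3 WT-labelled arrays and 3 of 3 C2C12 arrays. It read -6.46, -5.71 and -5.68 in KO atrium, ventricle and aorta, against -4.37, -2.82 and -3.94 in the WT samples of these regions. It was on too few of the heart arrays to enter the test. The neighbours Prelp and Fmod therefore differed in opposite directions.

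Osteomodulin, encoded by Omd, is a keratan sulfate proteoglycan of bone, and osteoglycin, encoded by Ogn, is also called mimecan. Both lie near Aspn, with their probes at chr13:49604415-49604474 for Omd and chr13:49636117-49636176 for Ogn (mm8). Omd read -3.83, -3.76 and -3.76 in KO atrium, ventricle and aorta, against -5.06, -3.41 and -4.98 in the WT samples of these regions. Only the WT ventricle array was above background among the WT-labelled ones, and it was above every KO-labelled sample, while WT atrium and WT aorta give bounds only. The Omd difference was 0.70 (SE 0.45, 95% interval -0.40 to 1.80, limma adjusted p 0.293). Without WT ventricle it was 1.24 and passed (limma adjusted p 0.00648), but the WT-labelled values left in that fit were at background. Ogn read 3.56, 4.91 and 2.71 in KO atrium, ventricle and aorta, against -2.25, 3.22 and 2.14 in the WT samples of these regions. C2C12 read 4.37 and 5.35. WT atrium was far below every other sample, and the rest of the heart samples overlapped. The Ogn difference was 2.69 with a wide interval (95% interval -0.86 to 6.25, SE 1.46, limma adjusted p 0.217). Without WT atrium it was 1.05 (adjusted p 0.288). Summed smooth muscle and pericyte markers were 305, 234 and 165 in KO atrium, ventricle and aorta, and 35.1, 173 and 103 in the WT samples of these regions, with Myh11 and Rgs5 above background on no heart array. Their part in the low Ogn and Bgn values of WT atrium was not tested.

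**Figure D2:**
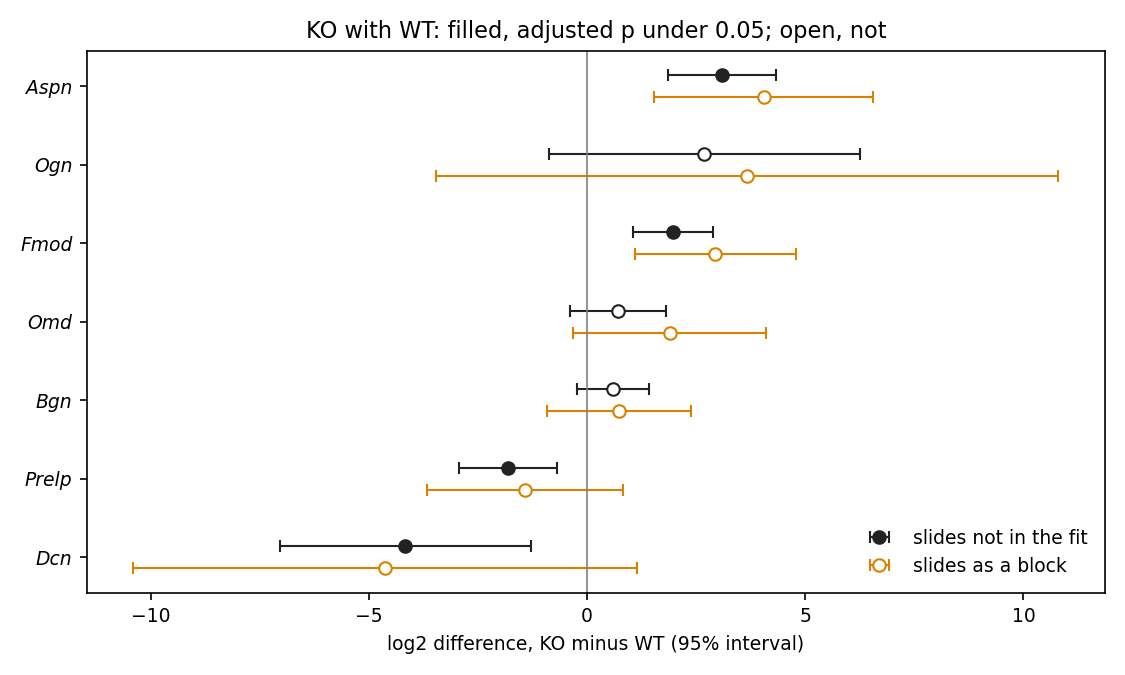
Log2 difference between KO-labelled and WT-labelled samples (horizontal axis) with its 95% interval for the 7 members tested, from the fit without the slides (black) and with the slides as a block (orange); filled points have an adjusted p under 0.05. The sign of each of the 7 differences is the same in both fits. No orange point is filled, where 891 of all 15807 genes passed in that fit. The Aspn values rest on WT signals at background.

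Against C2C12, WT-labelled samples were lower for Aspn, Fmod, Omd and Bgn, and KO-labelled samples were lower for Aspn. The comparisons of KO-labelled and of WT-labelled samples with C2C12 share the C2C12 samples, so they are given side by side. Aspn was -3.51 in KO-labelled against C2C12 samples (SE 0.58, limma adjusted p 0.0445), and at least 24.5-fold lower in WT-labelled than in C2C12 samples (adjusted p 0.000268). Fmod was -2.08 in KO-labelled samples (adjusted p 0.0993) and -4.05 in WT-labelled samples (adjusted p 0.000831), both against C2C12. Omd was -2.56 in KO-labelled samples (adjusted p 0.0954) and -3.26 in WT-labelled samples (adjusted p 0.00509). In C2C12 itself Omd read -1.82 and -0.63, above every heart sample. Bgn was -0.61 in KO-labelled samples (95% interval -1.44 to 0.21, adjusted p 0.552) and -1.21 in WT-labelled samples (adjusted p 0.0416).

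Prelp, Dcn and Ogn did not pass against C2C12 in either genotype. Prelp was -2.67 in KO-labelled against C2C12 samples (95% interval -3.82 to -1.53, adjusted p 0.0599) and -0.86 in WT-labelled against C2C12 samples (95% interval -2.00 to 0.29, adjusted p 0.241). Dcn was -2.92 in KO-labelled samples (95% interval -5.81 to -0.04, adjusted p 0.391) and 1.24 in WT-labelled samples (95% interval -1.65 to 4.13, adjusted p 0.502), the only positive value among the 14. Ogn was -1.13 in KO-labelled samples (adjusted p 0.863) and -3.82 in WT-labelled samples (95% interval -7.42 to -0.22, adjusted p 0.11). Counted together, 1 of 7 members was lower in KO-labelled samples than in C2C12 and 0 were higher, where 0.588% of 15807 genes were lower, 0.664% higher and 1.25% either. In WT-labelled samples 4 of 7 were lower than in C2C12 and 0 were higher, where 13.2% of all genes were lower, 13.8% higher and 27% either. Values did not overlap between KO-labelled and C2C12 samples for 6 of 7 members, against 37.9% of all genes, and between WT-labelled and C2C12 samples for 5 of 7, against 54.1%. The median of the 7 was -2.56 in KO-labelled and -3.26 in WT-labelled samples against C2C12, beside -0.03 and 0.03 over all genes. With the slides as a block the KO-labelled comparison called 0 members, beside 27 of all 15807 genes. The WT-labelled one kept Aspn, Fmod and Omd, beside 2286 of all 15807 genes. The Aspn call in KO-labelled samples was lost without KO 2 (adjusted p 0.0777), KO 3 (0.151), WT 2 (0.0543), WT 3 (0.0838), C2C12 1 (0.19) or C2C12 2 (0.277). The Bgn call in WT-labelled samples was lost without KO 1 (0.0565), KO 2 (0.0645), KO 3 (0.0691), WT 3 (0.0717), C2C12 1 (0.138) or C2C12 2 (0.181). It was also lost with normexp background correction (0.0741), without the filter on dim probes (0.0736), with the slides as a block (0.141) and with the mean over probes (-0.87, 0.236), and the second Bgn probe gave -0.54 (0.629).

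**Figure D3:**
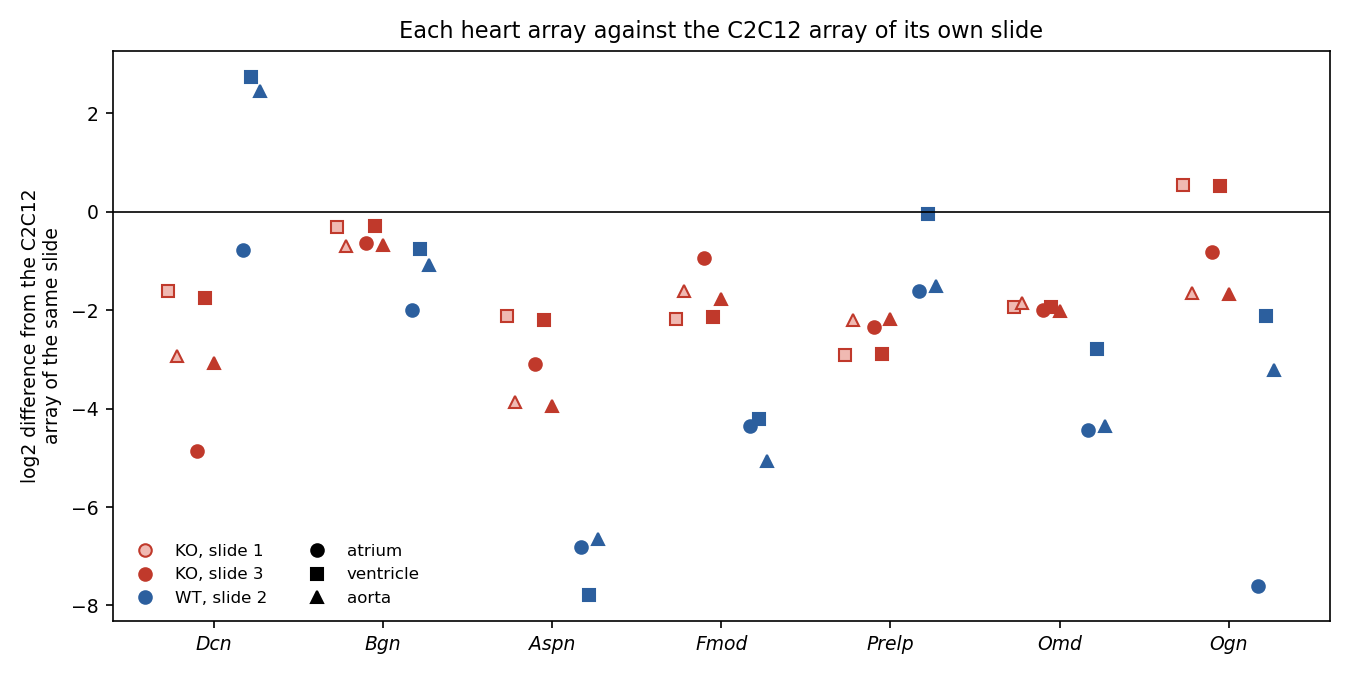
Log2 difference of each heart array from the C2C12 array of its own slide (vertical axis) for the 7 members tested in KO with WT, with KO-labelled arrays in red (slide 1 pale, slide 3 full) and WT-labelled arrays in blue (slide 2). For Aspn and Fmod every WT-labelled array lies lower than every KO-labelled one, and for Dcn and Prelp higher, as on the array scale. Omd, Ogn and Bgn also lie lower here. For Bgn the nearest values are -0.77 in WT ventricle and -0.69 in KO aorta on slide 1. The subtracted C2C12 samples themselves read 3.01 on slide 2 and 2.86 on slides 1 and 3 for Bgn. All WT-labelled values are set against 1 C2C12 array, and the share of all genes that separate on this scale is not given. On the array scale Omd, Ogn and Bgn overlap and 4 of the 7 do not, beside 49.2% of all genes. Slides 1 and 3 hold repeats of the same ventricle and aorta samples.

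No slide held both genotypes, so the differences from C2C12 set arrays of different slides against different C2C12 samples, C2C12 1 on slides 1 and 3 and C2C12 2 on slide 2. Lum, near background, is left out. Fmod was -0.95, -2.14 and -1.77 in KO atrium, ventricle and aorta on slide 3, against -4.35, -4.20 and -5.06 in the WT samples of these regions on slide 2. Omd was -2.01, -1.94 and -2.02 in the same KO arrays, against -4.44, -2.78 and -4.36 in the WT arrays. On this scale the Omd groups did not overlap, whereas on the array scale WT ventricle was above the KO-labelled samples. The C2C12 samples differed from each other for Omd, at -1.82 on slides 1 and 3 and -0.63 on slide 2. C2C12 2 also read above C2C12 1 for Ogn (5.35 and 4.37), Fmod (0.03 and -0.94) and Aspn (0.12 and -0.83). The gap was smaller for Prelp (2.59 and 2.19) and Bgn (3.01 and 2.86), and Dcn went the other way (1.41 and 1.87). Every WT-labelled value on this scale carries the C2C12 2 array. Ogn was the only one of these genes that exceeded C2C12 in any KO-labelled array, with 0.53 in KO ventricle on slide 3 and 0.54 in its repeat on slide 1. In WT atrium Ogn was -7.60 on this scale.

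Between heart regions no gene passed the test. The fit had the genotype as a term and 2 samples per region. It called 0 of 15002 genes, or 0%, in each of the 3 pairs of regions, while 1148 genes (7.65%) had an unadjusted limma p under 0.05 for atrium with ventricle, 675 (4.5%) for atrium with aorta and 440 (2.93%) for ventricle with aorta. For Dcn the difference between atrium and ventricle was -3.11 in KO-labelled and -3.53 in WT-labelled samples. The joint difference was -3.32 (SE 0.40, unadjusted limma p 0.000923, adjusted p 0.56), and it did not pass. Against aorta, atrium was -1.79 in KO-labelled and -3.23 in WT-labelled samples for Dcn (adjusted p 0.579). Ogn was -1.35 in KO-labelled and -5.47 in WT-labelled samples for atrium with ventricle (adjusted p 0.56). The region and the position of the array on its slide were the same throughout and cannot be told apart.

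**Figure D4:**
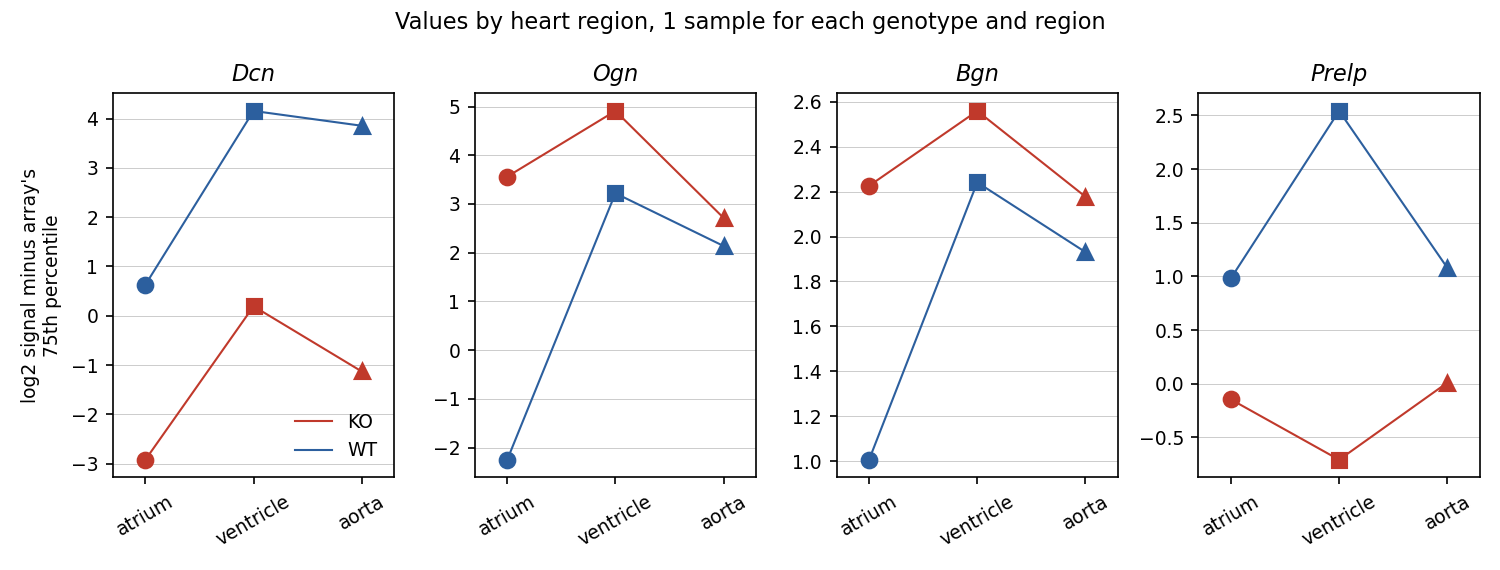
Log2 signal minus the array's 75th percentile (vertical axis, a scale of its own in each panel) by heart region for Dcn, Ogn, Bgn and Prelp in KO-labelled (red) and WT-labelled (blue) samples, 1 sample per point. Dcn is lowest in the atrium of both genotypes, and in WT-labelled samples Ogn and Bgn are also lowest in the atrium, with -2.25 and 1.01.

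Over the 8 samples the members fell into patterns that are described here without a test, since all share arrays and groups. Bgn and Ogn ran most closely together (Pearson r 0.967, Spearman rho 0.952). Fmod and Aspn had r 0.927, Fmod and Omd 0.892, and Aspn and Omd 0.835. Dcn and Prelp had r 0.691, and Dcn with Bgn had 0.035. The cluster on chromosome 13 held r of 0.835 between Aspn and Omd (rho 0.571), 0.676 between Aspn and Ogn (0.833) and 0.713 between Omd and Ogn (0.738). The neighbours Fmod and Prelp had r 0.235. Aspn was above background on 0 of 3 WT-labelled arrays and Omd on 1 of 3, so values with these genes rest partly on background signal. The 3 most like each of the 7 members were sought among 15806 other genes, and those named here had r between 0.961 and 0.991 over these 8 samples. For Dcn they were H2ac19, Acox3 and Frat2, with H2ac19 at r 0.984 and values between -6.69 and -3.98. For Ogn they were Cables1, Fam174a and Flna, the gene of the actin crosslinker filamin A, and for Bgn Ulk2, Ids and Denn2b. For Aspn they included Slc1a6 and Car3, the muscle carbonic anhydrase, and for Fmod the vitamin D receptor gene Vdr. In WT-labelled samples Slc1a6 read -7.06 to -6.71 and Car3 -7.79 to -5.75. For Prelp they included Gas1, and for Omd they were 2510009E07Rik, Rab3il1 and Arl1.

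As background, these proteoglycans coat collagen fibrils. Of 13 collagen genes tested, 7 were higher and 1 lower in KO-labelled than in WT-labelled samples, where 13.7% and 16.1% of all genes were. The median of the 13 was 1.27, against -0.06 over all genes. Col5a3, which encodes a chain of collagen V, was 6.53 higher on the log2 scale (SE 0.23, limma adjusted p 2.62e-05). Col3a1 differed by 2.02 (adjusted p 0.0272) and Col2a1, the cartilage collagen, by 2.13 (adjusted p 0.0266). Col11a1 was above background on no KO-labelled array and was at least 33.3-fold lower there. With the slides as a block 1 of the 13 was called (Col5a3), beside 891 of all 15807 genes. The skeletal myoblast markers were higher in the same samples, and their part was not tested. Against C2C12, WT-labelled samples were lower in 12 of 13 collagens, where 13.2% of all genes were lower. An unadjusted limma p under 0.05 was found there for 39% of all genes. With the slides as a block 6 of the 13 were called in that comparison, beside 2286 of all 15807 genes. KO-labelled samples were lower than C2C12 in 0 of the 13, where 0.588% of all genes were.

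Enzymes that build the sugar chains were mixed. Of 21 genes for the linker and for chondroitin and dermatan sulfate, 4 were higher and 2 lower in KO-labelled than in WT-labelled samples, with a median of 0.30. Over all genes tested 13.7% were higher, 16.1% lower and 29.7% called either way, so this count is near the share of all genes. Chst3, a chondroitin 6-sulfotransferase, was 3.90 higher on the log2 scale (SE 0.15, limma adjusted p 3.27e-05) and was above background on 2 of 3 WT-labelled arrays. Ust was 1.45 higher (adjusted p 0.00108). Xylt2, a xylosyltransferase that starts the chain, was -1.15 (adjusted p 0.00178) and Chpf was -1.03 (adjusted p 0.00755). Of 9 keratan sulfate genes 2 were higher and 1 lower, beside the same shares of all genes. Chst1, a keratan sulfate sulfotransferase, differed by 7.07 (adjusted p 0.00158) and was above background on 1 of 3 WT-labelled arrays. Chst2 differed by 2.21 (adjusted p 0.00417) and Chst4 by -0.74 (adjusted p 0.0395).

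Among TGF-beta genes, which encode ligands, receptors and latent binding proteins, 2 of 10 were higher and 3 lower in the KO-labelled samples. Over all genes 13.7% were higher and 16.1% lower. Tgfb2 was 3.75 higher on the log2 scale (SE 0.42, limma adjusted p 0.00163) and Tgfb1 1.82 higher (adjusted p 0.0058). Tgfbr3, the coreceptor betaglycan, was above background on no KO-labelled array and at least 5.59-fold lower there, and Ltbp2 was -1.61 (adjusted p 0.0454). Of 10 genes for receptors that the family is known to bind, 2 were higher and 1 lower, beside the same shares of all genes. P2rx7, a purinergic receptor linked to biglycan, differed by 3.22 (adjusted p 0.0176), the Toll-like receptor gene Tlr2 by 1.40 (adjusted p 0.0033) and Igf1r by -1.38 (adjusted p 0.0112).

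Proteases that cut these proteoglycans or process collagen were called in both directions. Of 9 tested, 1 was higher and 4 were lower in KO-labelled than in WT-labelled samples, where 13.7% and 16.1% of all genes were. Mmp3, stromelysin, was -7.61 (SE 0.77, limma adjusted p 0.00109) and above background on 1 of 5 KO-labelled arrays. Tll1 was at least 4.08-fold lower, Adamts1 was -1.27 (adjusted p 0.0123) and Adamts4 was 1.94 (adjusted p 0.0215). Of 13 other proteoglycan genes 6 were higher and 2 lower, beside the same shares of all genes. Gpc4, a glypican, was at least 123-fold lower in KO-labelled samples and Spock2, a testican, at least 51.3-fold higher. Gpc1 was 1.48 (adjusted p 0.00075) and Sdc3 -1.47 (adjusted p 0.0445). With the slides as a block 1 of the 21 linker, chondroitin and dermatan sulfate genes was called (Chst3), 1 of the 9 proteases (Tll1) and 4 of the 13 other proteoglycans, Gpc1, Gpc4 and Spock2 among them. In that fit 891 of all 15807 genes were called, and 0 of the keratan sulfate, TGF-beta and receptor genes. Of the 10 other small leucine-rich proteoglycans and close relatives, 4 were tested (Podnl1, Tsku, Chadl and Chad) and 0 were called, with differences of -1.09, 0.54, 0.55 and -0.59. At an unadjusted limma p under 0.05, 42% of all genes passed in this comparison.

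**Figure D5:**
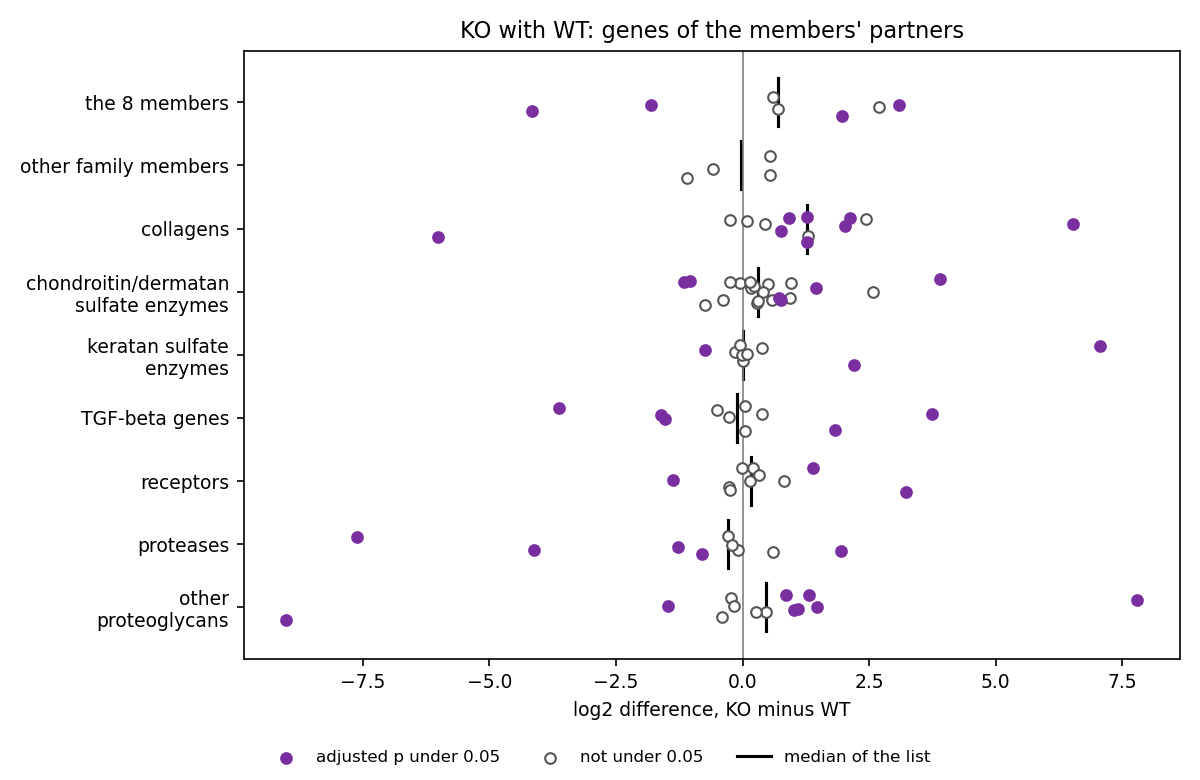
Log2 difference between KO-labelled and WT-labelled samples (horizontal axis) for each tested gene of the family and of 8 lists of partner genes (rows); filled points have an adjusted p under 0.05 and black bars are list medians. Of the 13 collagens 7 filled points lie to the right and 1 to the left, and the 7 tested members have 2 on each side.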

How the data were processed

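RNA from heart progenitor cells and C2C12 was measured on 11 one-colour arrays. The submitters' processing notes name Agilent Feature Extraction 9.5.3.1. The deposited spot intensity had its background subtracted and carried no scaling between arrays, per the file headers. Across the series a deposited table gives log2 values equal to those of the scanner within 0.01 for 99.7 to 99.8% of probes, with column medians of 5.45 to 5.77 and no further scaling or centring. Control spots (1639 of 45018) and spots marked as outliers (39 to 120 per array) were left out, and 0 spots were saturated. Repeated spots of a probe were averaged, and 53 of 41174 probes had no unmarked spot on some array.

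Probe names were updated through accession, symbol or synonym in a RefSeq table of GRCm38.p6. Near-identical arrays (log2 differences below the noise of repeated spots, over 8208 bright probes) were averaged, and over the 7 members tested such arrays differed by at most 0.186. Log2 signals minus each array's 75th percentile were the input to limma (version 3.58.1, under R 4.3.3), with probes above background on at least 3 fitted arrays, 1 probe per gene (the highest mean) and Benjamini-Hochberg adjustment over all genes. KO with WT used the 6 heart samples, the comparisons with C2C12 all 8, and the regions the 6 heart samples with genotype as a term. A gene above background on no array of a group has a bound ("at least"), the brighter mean over the higher of its own signal and the lowest signal above background. The fit was also run on simulated data with independent noise for each sample. Those data held no slide or region effect, so the run does not cover that part of the design. Python 3.11.15, pandas 2.3.3, numpy 2.4.6 and matplotlib 3.10.9 were used. The number of arrays limits the precision.

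The genes named are the 8 members with every probe, up to 4 called genes with the largest difference in each other list, the genes of the other family members that were tested, and the 3 genes most like each tested member. The last but one group was named after its values were seen. Not every gene that this rule picked is reported here. The members and lists were chosen with earlier results of these data known. Alternatives covered background correction, scaling, the filter, joining, slide or region as a block, the probe rule and each sample left out.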

Additional observations from a re-analysis of the deposited data

Results flagged for a closer look

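After averaging there was 1 sample for each genotype and region, so differences between regions could be set side by side between the genotypes but the difference was not tested. The members above background on every array of the regions compared were Dcn, Bgn, Ogn, Prelp and, for atrium with ventricle, Fmod. The sign was opposite in some pair of regions for 4 of these, and Dcn kept its sign in each pair. Aspn and Omd were not considered, since WT-labelled arrays were at background, nor were comparisons of Fmod that use WT aorta. Prelp was 0.56 for atrium with ventricle in KO-labelled samples and -1.56 in WT-labelled samples, and for ventricle with aorta it was -0.72 in KO-labelled and 1.46 in WT-labelled samples. Fmod was 1.21 for atrium with ventricle in KO-labelled samples and -0.15 in WT-labelled samples. Ogn was 0.85 for atrium with aorta in KO-labelled samples and -4.39 in WT-labelled samples. Bgn was 0.05 for atrium with aorta in KO-labelled samples and -0.92 in WT-labelled samples. The Fmod value of -0.15 and the Bgn value of 0.05 were smaller in size than the largest difference between repeat arrays (0.186). Their signs are therefore uncertain, and the share of all genes with opposite signs is not given.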

How the results depend on the processing

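No member changed direction in any of the 17 alternatives run for each of KO with WT, KO with C2C12 and WT with C2C12 (for the regions only counts of genes were rerun), and the cause of a lost or gained call was not tested. For KO with WT 4461 genes were called, against 2793 with normexp, 891 with the slides as a block and 2643 to 5873 with 1 sample left out. Of the members 4 were called, against 2 without the filter on dim probes, 0 with the slides as a block and 2 to 4 with 1 sample left out. For KO with C2C12 198 genes were called, against 45 with normexp, 99 without the filter, 1629 with every array as its own sample, 27 with the slides as a block and 13 (without C2C12 1) to 464 (without WT 1) with 1 sample left out. The 1 member called became 2 with median scaling or the deposited values, 0 without the filter or with the slides as a block, 4 with every array as its own sample and 0 to 2 with 1 sample left out. For WT with C2C12 4265 genes were called, against 2508 with normexp, 6661 with every array as its own sample, 2286 with the slides as a block and 2273 to 5624 with 1 sample left out. There 3 to 5 members were called with 1 sample left out, and Prelp passed without WT 2 (-1.36, adjusted p 0.0212). The share of called genes that were higher was 45.9% for KO with WT (57.1% with the slides as a block) and 53% for KO with C2C12 (68.9% with normexp). The median of all genes for KO with WT was -0.11 with the deposited values. The regions gave 0 genes under each alternative run. Pairing by replicate number was not possible because the numbers were given in accession order. With the region as a block, which pairs the genotypes by region, KO with WT called 3644 genes and 3 members, with Prelp lost. The number of arrays and signals near background limit Lum, Aspn, Omd in WT-labelled samples and the second probes.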
